A study of Mus musculus with 28 samples.

Results

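The interferon gamma signalling genes described here are 9 named components of the pathway: the receptor chains *Ifngr1* and *Ifngr2*, the kinases *Jak1* and *Jak2*, the transcription factors *Stat2*, *Irf9*, *Irf1* and *Irf8*, and the inhibitor *Socs1*. They were taken by name from the 49585 features of a table of read counts, and each of the 9 had its own row. The RNA came from the livers of 28 C57BL/6JOlaHsd mice aged 5 to 7 months. The mice fell into 4 groups of 7, namely WT males, SIRT6-tg males, WT females, SIRT6-tg females. SIRT6-tg mice carried a *Sirt6* transgene, and the gene encodes a nuclear deacylase of the sirtuin family. All SIRT6-tg mice came from 1 transgenic line, they overexpressed the gene in the whole body, and WT animals were their littermates. All groups were fasted before the livers were taken. The design asked how the transgene changed liver expression in each sex.

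Interferon gamma is a cytokine made mainly by T cells and natural killer cells, and its receptor is a pair of IFNGR1 and IFNGR2 chains that carry JAK1 and JAK2. The activated kinases phosphorylate STAT transcription factors, which bind gamma-activated sites (GAS) and induce a first wave of genes that includes *Irf1* and *Socs1*. IRF1 and IRF8 carry the response on to genes of antigen presentation and defence, while SOCS1 binds the kinases and closes the loop. STAT2 and IRF9 are best known as the subunits that take type I interferon signals to interferon-stimulated response elements (ISRE). In the liver the pathway is active in hepatocytes as well as in Kupffer cells, the resident macrophages.

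The sequences before the start sites of 4 components are shown, because these genes hold a GAS core or an ISRE there and were lower in SIRT6-tg males. Each runs 5′ to 3′ on the strand of its gene over the 250 bases before the RefSeq start (GRCm38), and capitals mark the matches to the GAS core TTCNNNGAA or to the ISRE core, which is GAAA followed by 2 bases of any kind and GAAA, searched on both strands. Overlapping matches share 1 run of capitals.
Irf1, chr11:53769764-53770013, plus strand: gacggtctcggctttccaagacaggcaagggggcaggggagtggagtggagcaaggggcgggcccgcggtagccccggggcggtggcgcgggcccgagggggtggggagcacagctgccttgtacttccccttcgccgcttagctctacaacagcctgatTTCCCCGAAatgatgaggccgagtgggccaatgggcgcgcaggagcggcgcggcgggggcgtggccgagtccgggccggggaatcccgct
Irf8, chr8:120736108-120736357, plus strand: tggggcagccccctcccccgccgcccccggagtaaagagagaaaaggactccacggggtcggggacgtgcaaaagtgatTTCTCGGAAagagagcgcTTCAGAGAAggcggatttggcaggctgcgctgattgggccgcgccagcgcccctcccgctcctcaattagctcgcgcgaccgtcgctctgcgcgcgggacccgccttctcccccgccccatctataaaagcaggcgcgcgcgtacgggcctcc
Socs1, chr16:10785537-10785786, minus strand: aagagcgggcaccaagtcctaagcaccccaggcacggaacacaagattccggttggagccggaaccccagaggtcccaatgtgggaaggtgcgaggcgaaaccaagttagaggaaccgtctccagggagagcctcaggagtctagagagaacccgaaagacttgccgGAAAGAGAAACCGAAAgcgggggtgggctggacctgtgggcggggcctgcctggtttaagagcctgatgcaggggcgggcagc
Stat2, chr10:128270248-128270497, plus strand: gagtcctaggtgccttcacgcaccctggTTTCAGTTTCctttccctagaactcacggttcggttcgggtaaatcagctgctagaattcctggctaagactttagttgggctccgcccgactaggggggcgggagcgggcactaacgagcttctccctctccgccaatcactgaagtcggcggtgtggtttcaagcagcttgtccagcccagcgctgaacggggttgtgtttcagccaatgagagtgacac

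*Irf1* had 1 GAS core, TTCCCCGAA, 90 to 82 bases before the start (chr11:53769924-53769932). *Irf8* had 2, TTCTCGGAA at 171 to 163 bases and TTCAGAGAA at 153 to 145 bases before the start. The *Socs1* sequence held 2 ISRE cores that overlap by 4 bases, GAAAGAGAAA at 83 to 74 bases and GAAACCGAAA at 77 to 68 bases before the start. In *Stat2* the ISRE core lay 222 to 213 bases before the start and read TTTCAGTTTC on the gene's strand. In windows from 250 bases before to 50 after the start, all 9 components had an entry, 2 of them held a GAS core and 2 an ISRE core. *Irf1*, *Irf8* and *Irf9* each had another start with its own window, and those windows held no match to either core. The positions above refer to the start whose sequence is shown. Of the 27025 genes with such a window, 9.55% held the GAS core in at least 1 window and 3.99% the ISRE core, and over all 32851 windows the shares were 8.30% and 3.44%. With 1 more base between TTC and GAA the GAS core was found in the windows of 3 components, *Stat2*, *Irf9* and *Ifngr2*, in 8.01% of all genes and in 6.95% of all windows. No match to the 2 main cores was found in the windows of *Ifngr1*, *Ifngr2*, *Jak1*, *Jak2* or *Irf9*. A match is a run of letters and was not tested for binding.

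Total counts lay between 18758863 and 35393069 per library, and all 9 components passed the filter on low counts, as did 21583 genes in all. Levels are given as CPM, the counts scaled to a library of 1000000, with library sizes corrected by TMM factors, which ranged from 1.06 to 1.17 in male WT, from 0.821 to 0.993 in male SIRT6-tg, from 0.908 to 1.02 in female WT and from 0.906 to 1.06 in female SIRT6-tg libraries. *Sirt6* itself separated the genotypes in each sex. It ranged from 1.69 to 3.24 CPM in male WT and from 198 to 358 CPM in male SIRT6-tg mice, and from 1.81 to 6.22 CPM in female WT and from 16.4 to 50.2 CPM in female SIRT6-tg mice. The log2 fold change was 6.68 in males (SE 0.296, adjusted p = 1.78e-15) and 3.39 in females (SE 0.261, adjusted p = 3.33e-09). *Sirt6* was thus higher in male than in female SIRT6-tg livers (log2 difference 3.22, adjusted p = 8.96e-11), so the sex of the mice and the level of the transgene cannot be told apart in what follows.

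In males, 5 of the 9 components were lower in SIRT6-tg than in WT livers and none was higher. *Socs1* fell the most, followed by *Irf8* and *Irf1*, while *Ifngr1* and *Stat2* fell by less. Of all genes tested, 11.0% were called lower and 9.68% higher in the same comparison (edgeR's quasi-likelihood test, Benjamini-Hochberg adjusted p under 0.05). The median log2 fold change of the 9 components was -0.36 and that of all genes 0.06, and each of the 9 had a negative value. In 4 components, *Socs1*, *Irf8*, *Irf1* and *Stat2*, every SIRT6-tg male lay below every WT male, which was so for 4.37% of all genes. The scaling moved these counts. With library sizes alone and no TMM factors the median of all genes was -0.22, all 9 components were called lower, and of the genes called only 4.89% were higher, against 46.8% with TMM. Relative to that median the 9 components still lay between -2.69 for *Socs1* and -0.12 for *Jak1*.

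**Figure D1:**
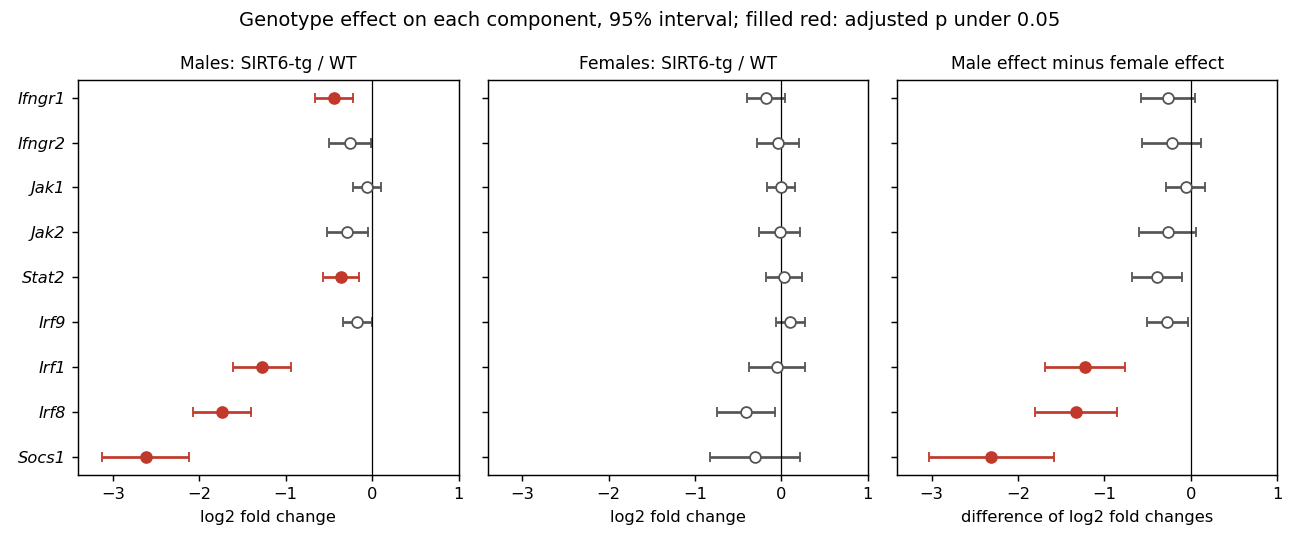
Log2 fold change of SIRT6-tg against WT livers for each of the 9 components in males, in females, and the male effect minus the female effect. Points are edgeR estimates with approximate 95% intervals, and filled red points have an adjusted p under 0.05. *Irf1*, *Irf8* and *Socs1* lie between -1.28 and -2.62 in males, while no component is filled in females.

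The receptor chains behaved unequally. *Ifngr1* (chr10:19591949-19610229) encodes the chain that binds the ligand. It ranged from 17.9 to 32.7 CPM (median 27.5) in male WT and from 16.2 to 25.9 CPM (median 18.7) in male SIRT6-tg mice. The ranges overlapped, and 2 of the 7 SIRT6-tg males lay below all WT males. Its log2 fold change was -0.44 (SE 0.113, adjusted p = 0.00487), a 1.36-fold lower level. *Ifngr2* (chr16:91547072-91565623), the chain that joins the complex to start signalling, had 31.4 to 51.4 CPM (median 40.3) in WT and 27.1 to 44.8 CPM (median 32.9) in SIRT6-tg males. These ranges overlapped over most of their length, and the log2 fold change of -0.26 (95% interval -0.50 to -0.02, adjusted p = 0.142) was not called. *Ifngr2* was called when male SIRT6-tg mouse 6, the highest of its group, was left out (adjusted p = 0.0388), and its adjusted p over all removals of 1 library ran from 0.0388 to 0.289.

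The kinases moved little. *Jak1* (chr4:101152367-101265282) serves many cytokine receptors. It lay between 105 and 132 CPM (median 121) in WT and between 98.8 and 124 CPM (median 114) in SIRT6-tg males, so that the groups overlapped almost wholly. The log2 fold change was -0.06 with a 95% interval of -0.22 to 0.10 (adjusted p = 0.672). *Jak2* (chr19:29251828-29313080) is tied to IFNGR2 and to the receptors of growth hormone and erythropoietin. It had 17.2 to 30.0 CPM (median 23.4) in WT and 14.3 to 23.4 CPM (median 20.95) in SIRT6-tg males. Here the SIRT6-tg mice lay lower but within reach of the WT mice, and the log2 fold change of -0.29 (95% interval -0.52 to -0.05, adjusted p = 0.0906) missed the threshold. *Jak2* sat at its edge, since it was called with RLE size factors (adjusted p = 0.0471), upper-quartile scaling (0.0267), the filter of filterByExpr (0.0496) or DESeq2 (0.0306), and when male WT mouse 6 was left out (0.0266). Over all settings other than removals its adjusted p ran from 0.00416 to 0.137.

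*Stat2* (chr10:128270559-128292849), which pairs with IRF9 in the type I response, was lower in SIRT6-tg males by a small and even step. Its level was 51.3 to 60.9 CPM (median 58.4) in WT and 37.99 to 49.1 CPM (median 44.1) in SIRT6-tg males. The groups did not overlap, because both were narrow, with a coefficient of variation of 6.11% in WT and 8.17% in SIRT6-tg mice. The log2 fold change was -0.36 (SE 0.106, adjusted p = 0.0147). *Irf9* (chr14:55603571-55610030), its DNA-binding partner, had 40.6 to 45.5 CPM (median 43.6) in WT and 35.2 to 43.2 CPM (median 38.2) in SIRT6-tg males. Although 6 of 7 SIRT6-tg males lay below all WT males, the log2 fold change of -0.17 was not called (95% interval -0.34 to -0.00052, adjusted p = 0.171). The interval is approximate and ends next to 0, and the unadjusted p of edgeR's test was 0.0585. *Irf9* was called with upper-quartile scaling (adjusted p = 0.0415), and over all settings other than removals of a library its adjusted p ran from 0.000692 to 0.289. *Irf9* shares 123 of its 5386 exon bases with *Rnf31* on the same strand, so reads there could be lost to either gene.

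*Irf1* (chr11:53770014-53778374), a direct target of the pathway and an activator of its later genes, had the most reads of the components that fell more than 2-fold. In WT males it ranged from 74.7 to 126.5 CPM (median 90.6), and in SIRT6-tg males from 26.0 to 57.3 CPM (median 34.8). No SIRT6-tg male came near the lowest WT male. The level was 2.42-fold lower, a log2 fold change of -1.28 (SE 0.169, adjusted p = 1.62e-06). *Irf8* (chr8:120736358-120756694) is a factor of macrophages and dendritic cells that works with other IRFs on interferon genes. It had 20.02 to 46.3 CPM (median 29.7) in WT males and 6.78 to 11.7 CPM (median 9.37) in SIRT6-tg males. The WT mice were spread over more than a 2-fold range, whereas the SIRT6-tg mice were close together, and the groups stood clear of each other. *Irf8* was 3.34-fold lower (log2 fold change -1.74, SE 0.172, adjusted p = 2.79e-08). *Irf1* shares 135 of its 3976 exon bases with *Gm17334* on the opposite strand, whose median count was 5, and the strand setting of the counting is not stated.

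*Socs1* (chr16:10782240-10785536), the feedback inhibitor of the kinases, was the least abundant component and showed the largest change of the 9. WT males had 48 to 198 reads per library, or 2.03 to 5.44 CPM (median 4.76). SIRT6-tg males had 8 to 25 reads, or 0.375 to 0.864 CPM (median 0.660). The WT males fell into a lower and a higher set, with 3 mice between 2.03 and 2.41 CPM and 4 mice between 4.76 and 5.44 CPM, and even the lowest of them lay above all SIRT6-tg males. *Socs1* was 6.14-fold lower (log2 fold change -2.62, SE 0.257, adjusted p = 2.36e-08). The 3 largest changes were those of *Socs1*, *Irf8* and *Irf1*. The remaining components, *Stat2* and *Irf9* among them, had values between -0.44 for *Ifngr1* and -0.06 for *Jak1*.

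**Figure D2:**
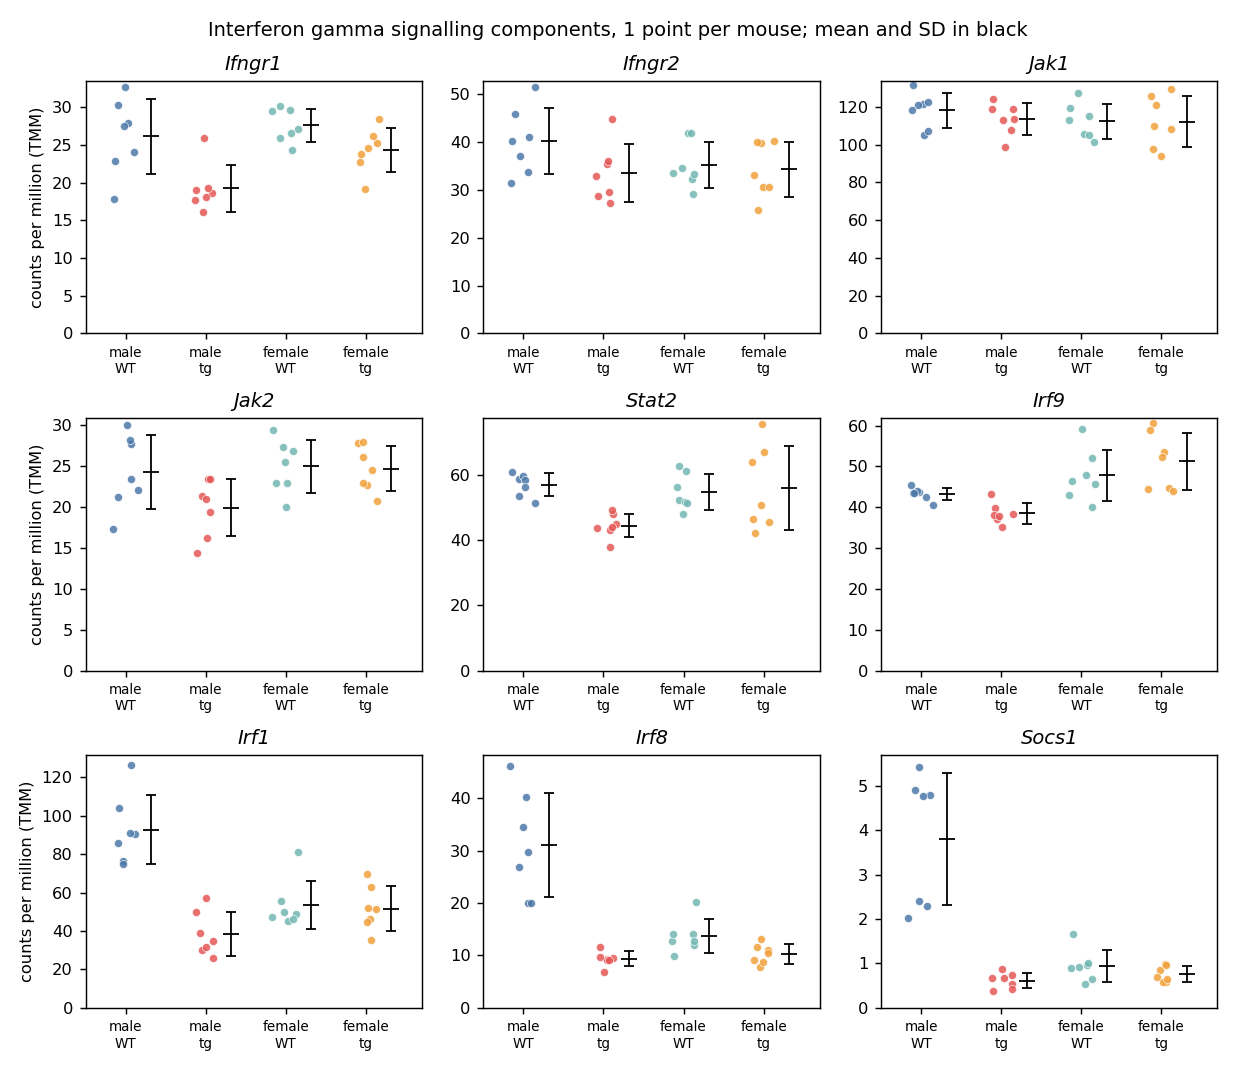
Level of each of the 9 components in every mouse, in CPM with TMM library sizes, by group, with the mean and SD of 7 mice in black. In *Irf1*, *Irf8*, *Stat2* and *Socs1* all male SIRT6-tg points lie below all male WT points, and the female groups overlap in all 9 panels.

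In females, none of the 9 components was called between SIRT6-tg and WT livers, by edgeR, which called 0.0278% of all genes there, or by DESeq2, which called 0.259%. At an unadjusted p under 0.05, reached by 5.62% of all genes, the only component was *Irf8*, and without female WT mouse 4 its p by edgeR was 0.0899. It ranged from 9.80 to 20.3 CPM (median 12.7) in WT and from 7.79 to 13.1 CPM (median 10.5) in SIRT6-tg females, and the ranges overlapped. The log2 fold change was -0.41 (95% interval -0.74 to -0.08, adjusted p = 0.742 by edgeR). *Socs1* had 0.538 to 1.67 CPM (median 0.928) in WT and 0.571 to 0.989 CPM (median 0.692) in SIRT6-tg females. At 12 to 40 reads per library its interval was wide, from -0.83 to 0.21 around a log2 fold change of -0.31. None of the 9 components had ranges that stood apart, which was so for 0.0417% of all genes in the lower direction. *Irf1* lay at 45.4 to 81.1 CPM (median 48.7) in WT and at 35.2 to 69.6 CPM (median 51.5) in SIRT6-tg females. Its log2 fold change was -0.05 (95% interval -0.38 to 0.28), so that a fall of the size seen in males was outside the interval.

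The other components of females gave log2 fold changes from -0.18 for *Ifngr1* to 0.10 for *Irf9*. *Ifngr1* had 24.4 to 30.2 CPM (median 27.2) in WT and 19.1 to 28.5 CPM (median 24.6) in SIRT6-tg females, with a log2 fold change of -0.18 (95% interval -0.40 to 0.04). *Ifngr2* had 29.2 to 41.9 CPM (median 33.4) and 25.7 to 40.1 CPM (median 33.1), with a log2 fold change of -0.04. The receptor chains therefore overlapped between the female groups. *Jak1* lay at 101 to 127 CPM (median 113) in WT and 93.9 to 129 CPM (median 110) in SIRT6-tg females, and *Jak2* at 19.95 to 29.3 CPM (median 25.4) and 20.7 to 27.9 CPM (median 24.4). Their log2 fold changes were -0.0017 and -0.02. Both kinases had about the same level in either genotype, with intervals of -0.16 to 0.16 for *Jak1* and -0.25 to 0.22 for *Jak2*. *Stat2* had 48.0 to 62.8 CPM (median 52.4) in WT and 42.2 to 75.5 CPM (median 50.7) in SIRT6-tg females, and *Irf9* had 40.1 to 59.2 CPM (median 46.5) and 44.0 to 60.6 CPM (median 52.4). *Stat2* spread more among SIRT6-tg females than in the other groups, with a coefficient of variation of 22.9% against 6.11% to 10.02%. The log2 fold change was 0.03 for *Stat2* and 0.10 for *Irf9*, the only positive values among the 9 components.

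Whether the effect differed between the sexes was tested directly, as the male minus the female log2 fold change. It did for 3 of the 9 components, all of them lower in males, where 3.84% of all genes were called lower and 1.2% higher. The difference was -2.31 for *Socs1* (SE 0.368, adjusted p = 0.000337), -1.33 for *Irf8* (SE 0.239, adjusted p = 0.00128) and -1.23 for *Irf1* (SE 0.237, adjusted p = 0.00215). *Stat2* was next with -0.39 (95% interval -0.68 to -0.10, adjusted p = 0.137), and *Irf9* followed with -0.27 (adjusted p = 0.222). For *Ifngr1*, called in males and not in females, the difference of -0.26 was not called (95% interval -0.57 to 0.05, adjusted p = 0.398). The remaining differences were -0.27 for *Jak2*, -0.22 for *Ifngr2* and -0.06 for *Jak1*. Removing any 1 library left the 3 calls in place, with adjusted p of at most 0.00481.

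The sexes were then compared within a genotype. These comparisons share their mice with the genotype comparisons and are no independent test of them. In WT livers *Socs1*, *Irf8* and *Irf1* were higher in males than in females, none of the 9 was lower, and 6.65% of all genes were higher and 5.71% lower. *Socs1* was 4.03-fold higher (log2 difference 2.01, SE 0.245, adjusted p = 7.72e-07), and every WT male lay above every WT female, as was so for 1.33% of all genes. *Irf8* was 2.28-fold higher (log2 difference 1.19, SE 0.169, adjusted p = 1.02e-05) and *Irf1* 1.74-fold higher (log2 difference 0.80, SE 0.167, adjusted p = 0.00143), each with 5 of 7 males above all females. The other 6 components had differences between -0.14 for *Irf9* and 0.19 for *Ifngr2*, none called. With library sizes alone *Ifngr2* was called as well (log2 difference 0.39, adjusted p = 0.0255), and *Irf9*, *Ifngr1* and *Jak2* turned to small positive values. Over the scalings, filters and the block the adjusted p of *Ifngr2* ran from 0.0255 to 0.452.

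In SIRT6-tg livers none of the 9 components was higher in males. There 3 components were lower in males than in females, *Irf9*, *Ifngr1* and *Stat2*, where 10.2% of all genes were lower and 12.9% higher. For *Irf9*, every SIRT6-tg male lay below every SIRT6-tg female, as in 2.56% of all genes, and the log2 difference was -0.41 (SE 0.0868, adjusted p = 0.000870). *Ifngr1* differed by -0.34 (SE 0.113, adjusted p = 0.0300) and *Stat2* by -0.33 (SE 0.106, adjusted p = 0.0221), both with overlapping ranges. These last calls lay near the threshold and were lost when any of several mice was left out. Over all removals of 1 library the log2 difference ran from -0.42 to -0.29 for *Ifngr1* and from -0.39 to -0.25 for *Stat2*. *Ifngr1* was not called without male SIRT6-tg mouse 2 (adjusted p = 0.0506), 3 (0.0507), 4 (0.0802) or 5 (0.0541), or without female SIRT6-tg mouse 1 (0.0612), 4 (0.0547) or 7 (0.0596). *Stat2* was not called without male SIRT6-tg mouse 1 (0.0512) or female SIRT6-tg mouse 2 (0.0779), 5 (0.0532) or 7 (0.0660). Over all removals the adjusted p ran from 0.00705 to 0.0802 for *Ifngr1* and from 0.00632 to 0.0779 for *Stat2*. *Irf1* (log2 difference -0.43, adjusted p = 0.0612) and *Jak2* (-0.31, adjusted p = 0.0622) were just outside the threshold, and the intervals of *Irf8* (-0.48 to 0.19) and *Socs1* (-0.84 to 0.24) spanned 0.

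To compare components with each other, CPM were divided by the exon length of each gene in kb. In WT males *Irf1* came first with 23.4 CPM per kb ± 4.49 (SD, n = 7), above *Jak1* with 16.4 ± 1.28, and the ranges of these 2 did not overlap. *Ifngr2* (10.6), *Stat2* (9.61), *Ifngr1* (9.19) and *Irf9* (8.05) formed a middle set whose neighbours overlapped. *Jak2* (4.82) and *Irf8* (4.41) also overlapped each other, and *Socs1* was last with 1.31 ± 0.509. In the 3 remaining groups *Jak1* took the first place with 15.7 in SIRT6-tg males, 15.6 in WT females and 15.5 CPM per kb in SIRT6-tg females, and *Irf1* was the next, with overlapping ranges. *Irf1* had 9.65 ± 2.87 in SIRT6-tg males, 13.4 ± 3.19 in WT females and 12.99 ± 2.90 CPM per kb in SIRT6-tg females. *Jak2*, *Irf8* and *Socs1* closed the order in every group, and there each gene's range was clear of the next except for *Jak2* and *Irf8* in WT males. Among WT males the coefficient of variation ran from 3.49% for *Irf9* to 38.9% for *Socs1*.

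**Figure D3:**
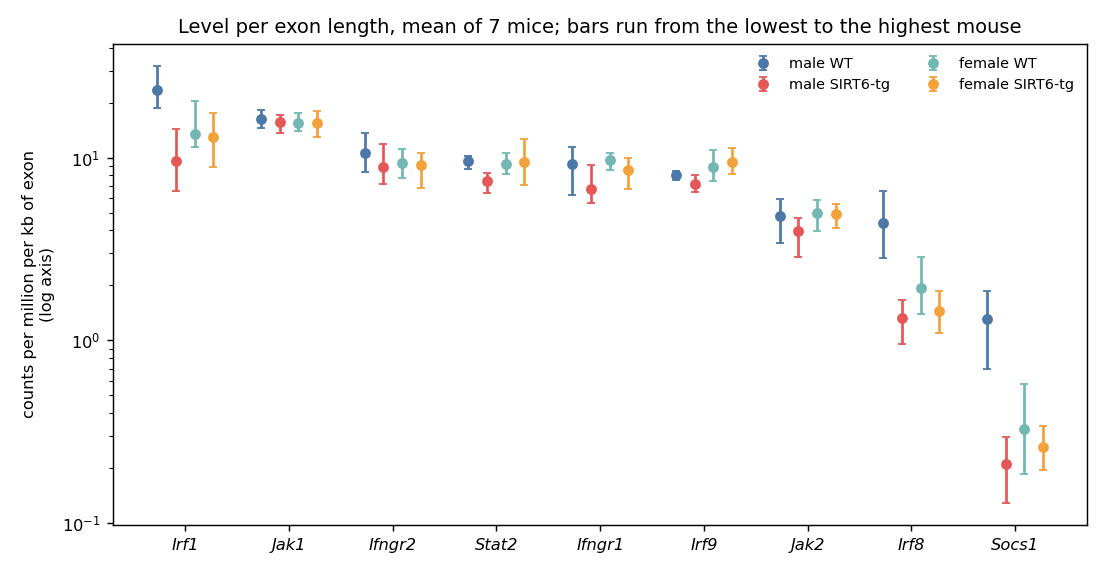
Mean level of the 9 components in each group of 7 mice in CPM per kb of exon, on a log axis, with bars from the lowest to the highest mouse. *Irf1* leads only in WT males, and *Irf8* and *Socs1*, which lie lowest, are also higher there than in the other groups.

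Within the groups some components varied together. Over the deviations of log2 CPM from the group means in 28 libraries, the highest Pearson r among the 36 pairs was 0.72 for *Jak1* and *Jak2*. It was followed by *Irf1* with *Ifngr2* (0.64), *Irf8* with *Ifngr1* (0.64) and *Irf1* with *Irf8* (0.63), and 7 pairs exceeded 0.5. *Irf8* and *Socs1* had an r of 0.52 in all, 0.83 among WT males and -0.30 among SIRT6-tg males. Among WT females it was 0.54 and among SIRT6-tg females 0.26. *Socs1* had few reads in each group other than WT males. *Ifngr2* ran against the kinases, with -0.45 for *Jak2* and -0.38 for *Jak1*. *Stat2* and *Irf9* had an r of 0.57, which was 0.84 among SIRT6-tg females and -0.02 among WT males. All points of such a correlation share library depth, scaling and cell makeup, and the values are descriptions.

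Among 12334 genes with a mean of at least 1 CPM, the same measure gave the genes outside the 9 that were most like each component. For *Ifngr1* they were *Msr1* (r = 0.88) and *Vsig4* (0.87), and for *Irf8* they were *Lcp2* (0.90) and *Hk3* (0.90). For *Jak1* they were *Tgfbr1* (0.91) and *Il6st* (0.90), and for *Jak2* *Colec12* (0.92) and *Usp25* (0.91). *Ifngr2* was closest to *Rhoc* (0.83) and *Bcl10* (0.81), and *Irf1* to *Snx24* (0.81) and *Commd7* (0.80). The values were lower for *Irf9* with *Ormdl2* (0.72) and *Parp9* (0.68), for *Stat2* with *Zc3h7a* (0.71) and *Ralgps2* (0.67), and for *Socs1* with *St6galnac4* (0.64) and *Acot9* (0.64).

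The ligand and other genes of interferon signalling give the setting of these changes. Their lists and the marker lists below were chosen with earlier results of these data known, so the counts of called genes are descriptions. *Ifng*, which encodes interferon gamma itself, had 4 to 43 reads per library in WT males and 1 to 5 in SIRT6-tg males, and 3 to 9 in WT and 1 to 6 in SIRT6-tg females. It was lower in SIRT6-tg males (log2 fold change -2.82, SE 0.5002, adjusted p = 0.000101) and higher in WT males than in WT females (1.79, adjusted p = 0.00662). In females its log2 fold change was -0.69 with an interval of -1.76 to 0.37, and the difference of the effect between the sexes was not called (-2.13, adjusted p = 0.110). Beside 11.0% of all genes, 4 of the 6 genes of the ligand and its inducing cytokines were lower in SIRT6-tg males and none was higher (median -2.24). Besides *Ifng* these were *Il12b* (-3.31) and *Il27* (-2.86), products of activated myeloid cells that promote interferon gamma, and *Il15* (-0.66), a growth factor of natural killer cells. *Il27* was also called for a difference between the sexes (-2.93, adjusted p = 0.0307).

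All 15 interferon gamma target genes tested were lower in SIRT6-tg males, with a median log2 fold change of -2.63, close to that of *Socs1*. Examples were *Gbp5* (-2.98) and *Gbp2* (-3.08), guanylate-binding proteins of cell-autonomous defence, the chemokine *Cxcl10* (-2.74), and *Cd274* (-2.76), which encodes the checkpoint ligand PD-L1. In females 0 of the 15 were called and the median was -0.01, and for 12 of the 15 the difference between the sexes was called, among them *Gbp5* (-2.79), *Gbp4* (-2.66), *Gbp2* (-2.83) and *Cd274* (-2.69). Like *Irf1*, *Irf8* and *Socs1*, 13 of the 15 were higher in WT males than in WT females, for example *Ciita* (2.01), the master regulator of MHC class II, *Cxcl10* (1.61), *Gbp5* (1.299) and the peptide transporter *Tap1* (1.11). Among SIRT6-tg mice 10 of the 15 were lower in males than in females, such as *Gbp2* (-1.96), *Cd274* (-1.64), *Irgm2* (-1.45) and *Gbp7* (-1.29). Of all genes, 11.0% were called lower in SIRT6-tg than in WT males and 3.84% lower for the difference between the sexes. Between males and females, 6.65% were higher in WT males and 10.2% lower in SIRT6-tg males.

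Of 12 type I interferon target genes, the usual outputs of STAT2 and IRF9, 8 were lower in SIRT6-tg males (median -1.05). They included *Oasl2* (-1.39), *Oas1a* (-1.48), *Ifit2* (-1.48) and *Ifi44* (-1.63). For 5 of the 12 the effect differed between the sexes, with -1.36 for *Oasl2*, -1.58 for *Ifi44*, -1.32 for *Oas1a* and -1.26 for *Ifit2*. Between SIRT6-tg males and females 10 of the 12 were lower in males, the same direction as *Stat2* and *Irf9*, with -2.23 for *Ifi44*, -1.23 for *Oasl2*, -1.15 for *Oas2* and -1.12 for *Oas3*. None of the 12 was called between the sexes in WT mice by edgeR, where 4 had an unadjusted p under 0.05, as did 25.1% of all genes. Over all genes 11.0% were called lower in SIRT6-tg than in WT males and 3.84% lower for the difference between the sexes. In SIRT6-tg mice 10.2% were lower in males than in females.

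The remaining families changed in part. Of all genes, 11.0% were called lower and 9.68% higher in SIRT6-tg than in WT males. Between males and females, 6.65% were higher and 5.71% lower in WT males, and 12.9% higher and 10.2% lower in SIRT6-tg males. Among the other interferon regulatory factors, *Irf4* (-1.26) and *Irf7* (-0.75) were lower and *Irf3* (0.43) was higher in SIRT6-tg males. *Irf5* was higher in males than in females in WT (0.78) and SIRT6-tg mice (0.54), and *Irf3* in SIRT6-tg mice (0.46). Of 7 other JAK kinases and STAT factors, *Stat4* (-1.57) and *Jak3* (-0.40), both typical of lymphocytes, were lower in SIRT6-tg males, and *Stat4* (-0.97) and *Stat5a* (-0.50) were lower in males than in females among SIRT6-tg mice. Of 4 other receptor chains, *Il10rb* was lower (-0.51) and *Ifnar2* higher (0.30) in SIRT6-tg males, and these 2 differed the same way between SIRT6-tg males and females (-0.42 and 0.26). Of 16 other negative regulators, 3 were lower and none higher in SIRT6-tg males, namely *Ptpn1* (-0.51), *Usp18* (-0.91) and *Ptpn6* (-0.36). The median was 0.04 for the 16 and 0.06 for all genes. Between the sexes *Socs7* was higher in males in WT (0.37) and SIRT6-tg mice (0.58) and *Pias1* lower in both (-0.26 and -0.30), *Ptpn1* was higher in WT males (0.37), and in SIRT6-tg mice *Pias4* was higher (0.61) and *Socs2* lower in males (-1.31). None of the 66 genes in the 7 lists was called in females by edgeR, and 6 of them had an unadjusted p under 0.05, against 5.62% of all genes.

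**Figure D4:**
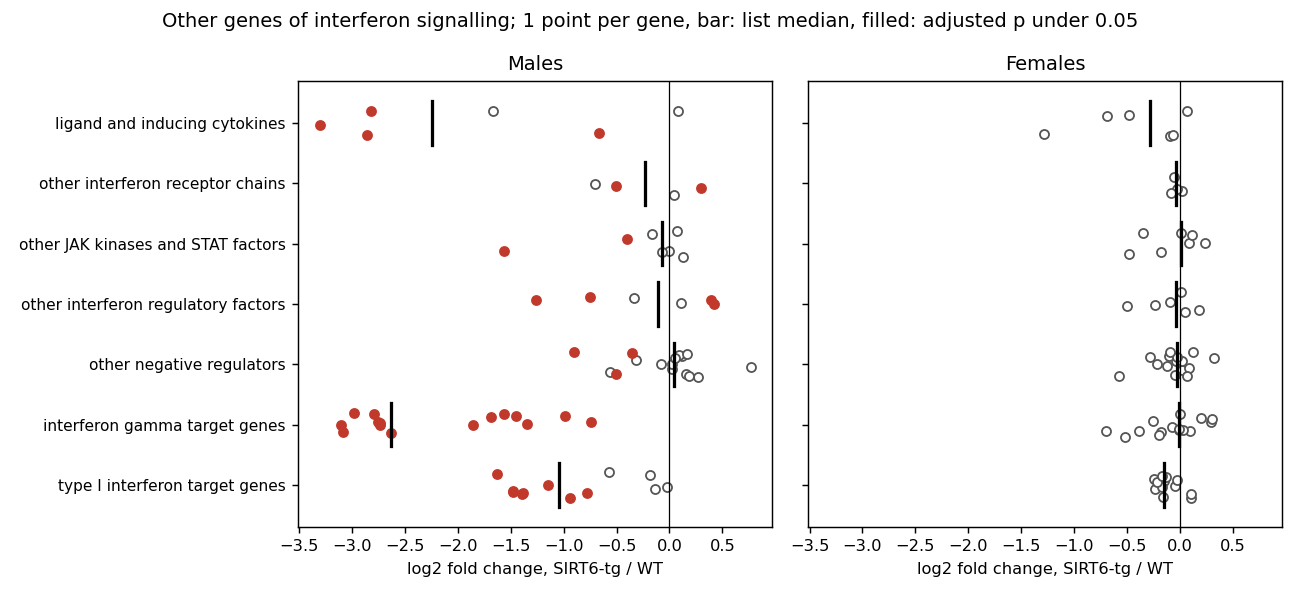
Log2 fold change of SIRT6-tg against WT livers for the genes of 7 lists of interferon signalling, in males and in females, with 1 point per gene and a bar at the list's median. Filled points have an adjusted p under 0.05. All 15 interferon gamma target genes are filled and negative in males, and no gene is filled in females.

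Markers of some liver cell types were also lower in SIRT6-tg males, and those of others were not. The measurements are of whole liver, in which fewer cells of a type and less RNA per cell cannot be told apart. Of all genes, 11.0% were called lower and 9.68% higher in SIRT6-tg than in WT males. In SIRT6-tg males 7 of 9 T and NK cell markers were lower, and their summed level was 14.1 to 53.7 CPM in WT and 3.91 to 8.91 CPM in SIRT6-tg males, with no overlap, as for *Irf1*, *Irf8* and *Socs1*. In females it was 5.81 to 20.2 CPM in WT and 6.41 to 14.9 CPM in SIRT6-tg mice. All 8 macrophage and Kupffer cell markers were lower in SIRT6-tg males, and their sum was 354 to 1183 CPM in WT males, 305 to 512 CPM in SIRT6-tg males, 394 to 817 CPM in WT females and 299 to 747 CPM in SIRT6-tg females. Male SIRT6-tg mouse 6 had the highest sum of these markers in its group as well as the highest *Ifngr1*, *Ifngr2*, *Irf1*, *Irf8*, *Irf9* and *Stat2*. Its *Jak2* (16.2 CPM, group median 20.95) and *Socs1* (0.537 CPM, group median 0.660) lay below the median, and its *Jak1* (113.6 CPM) was the median. *Vsig4*, named above as close to *Ifngr1*, is 1 of the 8 macrophage and Kupffer cell markers. Dendritic cell markers, of which 4 of 6 were lower, summed to 16.2 to 31.1 CPM in WT and 7.73 to 12.0 CPM in SIRT6-tg males, again with no overlap, and to 12.6 to 19.3 CPM and 11.6 to 16.2 CPM in the 2 female groups. Their part in the changes of the 9 components was not tested.

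Among the other cell types the results were mixed, and all stellate cell markers were lower in SIRT6-tg males. B cell markers were lower in SIRT6-tg males for 3 of 4 genes (sum 7.53 to 14.0 CPM against 4.28 to 8.45 CPM), stellate cell markers for 5 of 5 (283 to 524 against 220 to 319 CPM), endothelial markers for 1 of 6 (189 to 276 against 181 to 241 CPM) and neutrophil markers for 1 of the 4 tested (5.06 to 18.1 against 3.32 to 12.9 CPM). Of 4 cholangiocyte markers none was called (8.18 to 16.95 against 5.58 to 13.9 CPM). In the female groups these 5 sums overlapped between the genotypes. Hepatocyte markers were higher in SIRT6-tg males for 2 of the 7 with a row, and their sum of 89560 to 125600 CPM in WT and 112500 to 157600 CPM in SIRT6-tg males stood beside at least 114200 CPM in every female, so that the defining genes of liver tissue were present in each library. Of 6 markers of blood and pancreas 2 were higher in SIRT6-tg males. Over all genes 11.0% were called lower and 9.68% higher in this comparison. In lists this short, a count of 1 or 2 says little about a cell type. In no group was a marker at 0, except the neutrophil gene *Ly6g* in SIRT6-tg males, which had at most 4 reads in any library and was not tested. None of the markers was called between female SIRT6-tg and WT livers by edgeR, where 7 of the 59 tested had an unadjusted p under 0.05, against 5.62% of all genes.

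**Figure D5:**
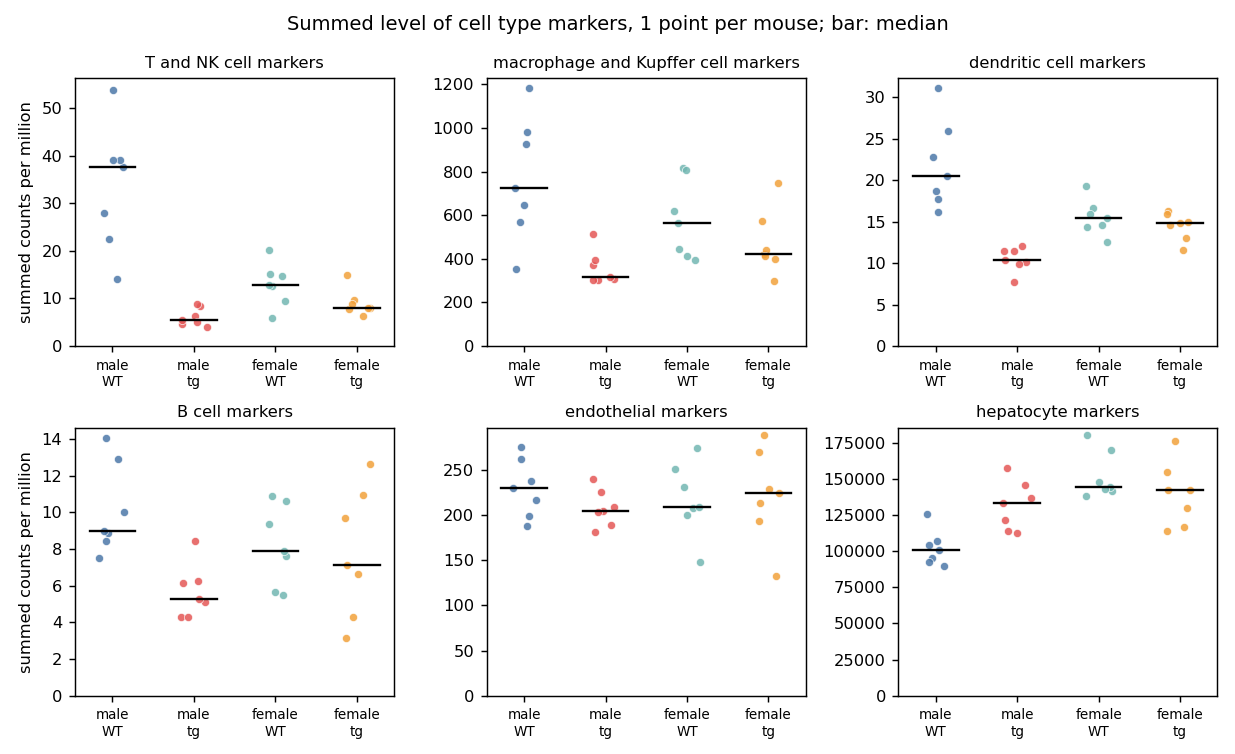
Summed level of the markers of 6 cell types in each mouse, in CPM with TMM library sizes, with a bar at the median of each group of 7. The T and NK cell sum and the dendritic cell sum of SIRT6-tg males lie below those of all WT males, while hepatocyte markers lie at 89560 CPM or more in every mouse.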

How the data were processed

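RNA-seq libraries of 28 mouse livers, 7 per group, were analysed from read counts per gene. The authors aligned single-end reads of NEBNext Ultra libraries to mm10 with STAR 2.5.0a, used HTSeq-count to count unique reads on Gencode vM12 genes, and deposited these raw counts, which carry no normalization. The strand setting is not given in the sources used here. Each column matched 1 sample by name. Libraries of a group differed by more than sampling noise, with a chi-square per gene of at least 12.2.

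Genes with a mean of at least 0.5 counts after scaling by DESeq2 size factors were kept (21583). TMM-normalized counts were tested with the robust quasi-likelihood F-test of edgeR 4.0.16 in R 4.3.3, fitted over the 4 groups at once without covariates, and p-values were adjusted over all genes (Benjamini-Hochberg). The SE of a log2 fold change was derived from its F value. The 95% intervals run 1.96 SE to either side of the estimate and are approximate. They give the uncertainty of the estimate that arises from the spread between mice, not the range of single mice. The method was checked on simulated counts. Symbols, coordinates and exon lengths came from Gencode vM21 (GRCm38, the same build as mm10), in which 49326 of 49585 features matched. Promoter sequences came from RefSeq (GRCm38.p6).

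Genes named were the 9 components, *Sirt6*, *Ifng*, up to 4 genes per pathway list and comparison with the lowest adjusted p under 0.05, and the 2 most similar genes of each component. A result that this rule would name is not reported here. Similarity was measured on log2 CPM with a prior count of 2. *Ly6g* was singled out after its values were seen. The components and lists were chosen with earlier results of these data known. Alternatives were RLE, upper-quartile or no scaling factors, filterByExpr, no filter beyond 1 count, DESeq2 1.42.0, each sex alone, a replicate block, and each library left out. The study's fold changes were not used.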

Additional observations from a re-analysis of the deposited data

Results flagged for a closer look

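Among 36 tests for a single mouse far from its group (9 components in 4 groups of 7, Dixon's test), 4 gave a flag, and chance flags about 1 in 20 groups. Of these, 3 fell on female WT mouse 4, which had the highest level of its group in *Irf1* (81.11 CPM, group median 48.66), *Irf8* (20.29 CPM, median 12.72) and *Socs1* (1.67 CPM, median 0.9275). It also had the highest T and NK cell marker sum of the female WT mice, 20.2 CPM. Without this mouse the female log2 fold change was 0.08 for *Irf1*, -0.29 for *Irf8* and -0.12 for *Socs1*, none called by edgeR. In male SIRT6-tg mouse 6, *Ifngr1* stood apart at 25.92 CPM (median 18.65).

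The effect of the transgene differed between the sexes by a test of the difference itself in 3 components, by -1.227 on the log2 scale for *Irf1*, -1.328 for *Irf8* and -2.31 for *Socs1*. Without female WT mouse 4 the differences were -1.36 (adjusted p = 0.000550), -1.45 (adjusted p = 0.000347) and -2.50 (adjusted p = 0.000140). The level of *Sirt6* also differed between male and female SIRT6-tg mice, and the 2 cannot be told apart.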

How the results depend on the processing

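No component changed sign where it was called, in any setting run. With library sizes alone 9 components were lower in males (5 with TMM), 5 for the difference between the sexes (3 with TMM, 1863 of all genes against 1089) and 5 between SIRT6-tg males and females (3 with TMM), and 4212 of all genes differed between WT males and females (2669 with TMM). The shifted median of all genes was -0.25 for the difference, 0.19 between WT and -0.14 between SIRT6-tg mice. Upper-quartile scaling and DESeq2 also gave 5 lower components between SIRT6-tg males and females. *Stat2* was called for the difference between the sexes with library sizes alone (adjusted p = 0.00689) and with DESeq2 (0.04999), over a range of 0.00689 to 0.219. The share of called genes that were higher in males was 35.7% with RLE and 26.2% with upper-quartile scaling. In females all genes called numbered 6 in the reported fit, 44 with DESeq2 and 2 with each sex fitted alone. Motif cores with the longer spacing were found in 3 components instead of 2. When each library was left out in turn, lower components numbered 5 to 6 in males, 3 for the difference and 1 to 4 between SIRT6-tg males and females (1 without female SIRT6-tg mouse 7), and all genes called in females 3 to 16, with 10 without female WT mouse 1 or 4, 16 without female SIRT6-tg mouse 2, 14 without mouse 7 and 3 without mouse 3 or 4. Same-numbered WT and SIRT6-tg mice had deviations correlated by -0.28 to 0.27, only 5 of 14 pairs exceeded 0.1, and only 1 mouse correlated best with its own number. No sign of pairing by number was seen in expression. A pairing by litter could leave no such sign and is not excluded. The fit with the replicate block gave 4 lower components between SIRT6-tg males and females (*Irf1* at adjusted p = 0.0365, over a range of 0.0216 to 0.0804) and changed no other component's call. Depth limits *Socs1*, at 8 to 40 reads outside WT males, and *Ifng*, at 1 to 9. The labels do not say whether the mice of a group came from separate litters.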
